A study of Mus musculus with 59 samples.

Results

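The measurements described here are 13 RNA-sequencing libraries of dispase-digested mouse uterus, out of 59 libraries in the whole series, and the quantity followed through them is the genotype by day interaction. All digested uterus libraries were used: the D0.5 groups held 4 controls and 3 knockouts, and the D3.5 groups held 3 of each genotype. For every gene the interaction is the knockout minus control difference at D3.5 less the same difference at D0.5, on the log2 scale. A positive value means that the knockout stood higher relative to its control on D3.5 than on D0.5. A negative value means the opposite.

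Controls were Esr1f/- females, which carry 1 floxed and 1 null allele of Esr1, the gene of oestrogen receptor alpha. Knockouts were epiERα-/- females (Esr1f/-Wnt7aCre/+), with the same 2 Esr1 alleles and a Cre recombinase driven by Wnt7a, a gene of the uterine epithelium. Both genotypes therefore have a single functional Esr1 allele outside the epithelium. The females were virgins of about 2 to 6 months, mated with stud males described as wild type (Esr1f/f or C57BL/6), and D0.5 is the day of the vaginal plug. Littermates of a genotype were spread over the days, and no 2 libraries of a group come from the same mouse. The uterine horns were opened and kept in 0.5% dispase for 30 min, and a small piece was taken before the luminal epithelium was scraped out. The digested piece thus still holds epithelium together with stroma and muscle, and it was collected to see what digestion does to expression. Undigested uterus and scraped luminal epithelium of the same 13 mice are also in the series.

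At D0.5 the mouse uterus is under the influence of preovulatory oestrogen, and its luminal epithelium responds with growth and secretion. By D3.5 progesterone from the new corpora lutea dominates, epithelial proliferation gives way to differentiation, and a small rise of oestrogen then makes the uterus receptive through leukaemia inhibitory factor (LIF) from the glands. LIF binds its receptor and the shared subunit gp130, which activates the transcription factor STAT3. Oestrogen receptor alpha acts in the epithelium and also in the stroma, from which paracrine signals reach the epithelium. An interaction between genotype and day asks which genes answer to epithelial loss of the receptor differently in these 2 hormonal settings.

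Depth ranged from 14.1 M to 46.2 M estimated counts per library (M for mega) with a median of 19.5 M, the deepest being control 1 at D0.5. Levels are given as CPM, counts scaled to a library of common size with TMM, an edgeR normalisation for composition, and libraries are named by their mouse number. Markers of stromal fibroblasts (mean log2 CPM of 8.76 to 9.76 over the 13 libraries) and smooth muscle (9.11 to 10.2) were high throughout. Markers of general epithelium lay between 7.10 and 7.96 at D0.5 and between 4.89 and 5.59 at D3.5, so the expected tissues were present on both days. In a bulk sample, fewer cells of a type and less RNA per cell cannot be told apart. Control 1 at D0.5 stood apart from the other controls of its day, with a neutrophil marker score of 1.90 against 4.33 to 4.90 and a cholesterol gene score of 3.96 against 5.12 to 5.62. Knockout 35 at D3.5 had a cell cycle score of 5.19 against 3.92 and 4.16 in the other knockouts of its day.

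Esr1, the targeted gene, was measured at 281, 236, 204 and 194 CPM in the D0.5 controls and at 150, 145 and 139 CPM in the D0.5 knockouts. The groups did not overlap (mean 228 ± 39.3 SD, n = 4, against 145 ± 5.53, n = 3; two-sided exact permutation test on log2 CPM, p = 0.0286, the smallest these numbers allow). At D3.5 Esr1 stood at 229, 211 and 206 CPM in controls and at 144, 186 and 157 CPM in knockouts (215 ± 11.9 SD, n = 3, against 163 ± 21.4, n = 3; exact permutation p = 0.1, again the smallest possible). The piece also holds stroma and muscle, in which Cre is not driven by Wnt7a. By the edgeR quasi-likelihood test with Benjamini-Hochberg adjustment, the Esr1 effect was called at D0.5 (−0.66 ± 0.14 SE, adjusted p = 0.0123). It was not called at D3.5 (−0.41 ± 0.15, adjusted p = 0.439). The Esr1 interaction in the same fit was 0.26 ± 0.20 (adjusted p = 0.571), so no change of the Esr1 difference between days was detected. Pgr, the progesterone receptor gene, gave −0.46 ± 0.29 (adjusted p = 0.472), and Wnt7a, whose regulatory region drives the Cre, gave 1.66 ± 0.61 (adjusted p = 0.202). In luminal epithelium, fitted on its own, the Esr1 interaction was called (0.93, adjusted p = 0.0318). Mean Esr1 there was 192 CPM in controls against 47.3 in knockouts at D0.5, and 127 against 59.7 at D3.5. The Esr1 interaction was not called as different between the 2 tissues (adjusted p = 0.576).

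The interaction passed an adjusted p of 0.05 in 304 of 16194 genes tested (1.88%), of which 153 were positive (0.945%) and 151 negative (0.932%). Without control 1 and knockout 35 together it was 400. Genotype effects were far more numerous on the first day: 1306 genes differed between knockout and control at D0.5 (8.06%; 630 higher and 676 lower in the knockout) and 93 at D3.5 (0.574%; 19 higher and 74 lower). Among the 304 genes, 230 had a called genotype effect at D0.5 alone, 38 at D3.5 alone, 29 on neither day and 7 on both days. All 7 had opposite signs on the 2 days. Ces1d and Entpd4b were lower in the knockout at D0.5 and higher at D3.5, and Fam43a, Mest, Myd88, Stat3 and Sting1 were higher at D0.5 and lower at D3.5.

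These counts depend on the libraries used. The count of interactions was 563 without control 1 and 515 without the D0.5 knockout 26, and it fell to 162 without control 5, 175 without knockout 25, 164, 143 and 105 without the D3.5 controls 11, 14 and 16, and 173, 155 and 167 without the D3.5 knockouts 32, 34 and 35. A fit of all 59 libraries of the 3 tissues, in which the tissues share 1 estimate of the spread, called 61 genes, 58 of them among the 304. For the genes described below with their values, a call lost in that fit is given with its adjusted p there. Entpd4b (0.069) and Fam43a (0.352) also lost theirs. No gene of the 304 changed direction in any of the settings run on counts. The D0.5 effect count of 1306 was 608 without control 5, and 642 and 720 without knockouts 25 and 27. The D3.5 effect count of 93 was 47 and 45 without the D3.5 controls 14 and 16, and 34, 46 and 40 without the D3.5 knockouts 32, 34 and 35. The smaller fits have fewer residual degrees of freedom than the 9 of the full one.

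**Figure D1:**
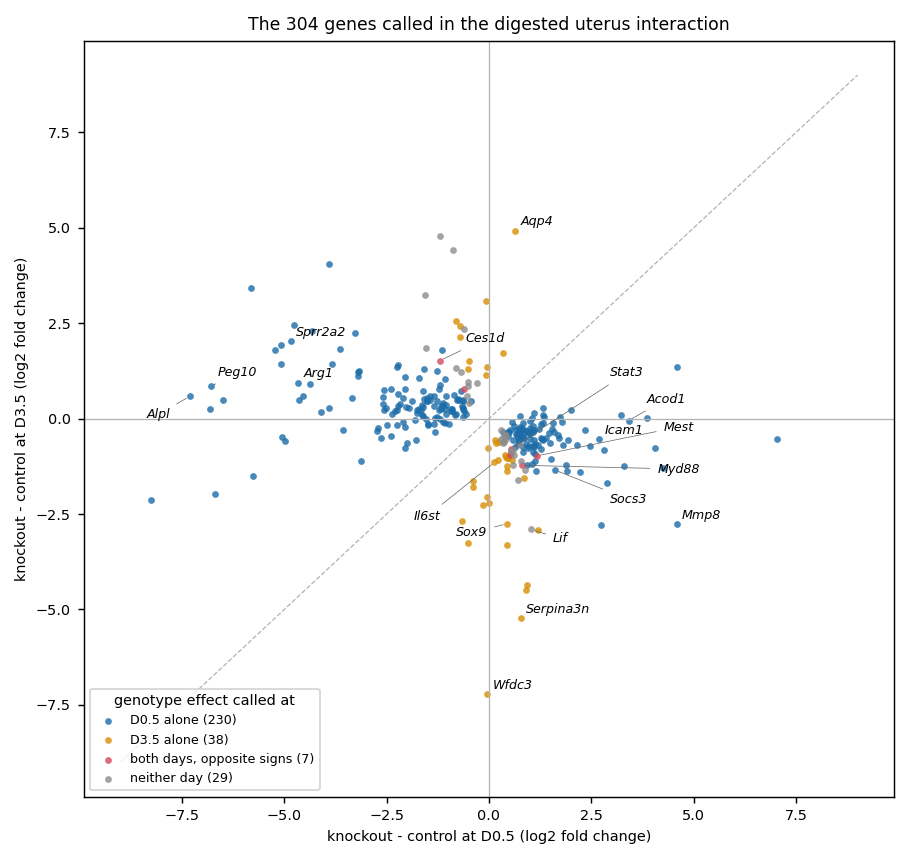
Knockout minus control log2 fold change at D0.5 (horizontal axis) and at D3.5 (vertical axis) for the 304 genes called in the interaction, 1 point per gene, coloured by the day on which the genotype effect was itself called. Most points spread along the horizontal axis, since 230 genes differed at D0.5 alone, and the 38 genes that differed at D3.5 alone spread along the vertical axis.

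Each called gene was also described by the 1 of the 4 groups whose mean stood furthest from the rest. In 102 genes this was the D0.5 control, standing high, and in 99 of these its 4 libraries did not overlap with any of the other 9. The D0.5 knockout stood high in 65 genes (52 without overlap) and low in 25 (20 without overlap). The D0.5 control stood low in 30 (26 without overlap). On D3.5 the control stood high in 29 genes (27) and low in 25 (21), and the knockout stood low in 27 (23) and high in 1 (0). These counts describe genes already selected by the interaction, a selection that itself favours groups without overlap. The same counts were not made over all genes tested.

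The first set comprises epithelial genes of the oestrogen phase that were high in the D0.5 controls and far lower in the other 3 groups. Alpl, a tissue-nonspecific alkaline phosphatase, was at 192, 453, 453 and 246 CPM in the D0.5 controls and at 2.46, 2.22 and 1.65 CPM in the D0.5 knockouts. On D3.5 its level was 3.47, 2.72 and 3.29 CPM in controls and at 3.81, 4.59 and 5.69 CPM in knockouts. Only the D0.5 controls were high, with no overlap. The knockout difference was −7.31 ± 0.38 at D0.5 (adjusted p = 2.98e-07) and 0.58 ± 0.33 at D3.5 (adjusted p = 0.727), and the interaction was 7.89 ± 0.48 (adjusted p = 2.42e-06).

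Peg10, an imprinted gene derived from a retrotransposon, behaved in the same way. It was at 748, 2491, 735 and 1072 CPM in the D0.5 controls, at 7.65, 9.36 and 17.1 CPM in the D0.5 knockouts, at 13.8, 10.7 and 10.7 CPM in the D3.5 controls and at 12.6, 14.2 and 35.9 CPM in the D3.5 knockouts. Its interaction was 7.64 ± 0.76 (adjusted p = 0.000729). Prxl2a, a peroxiredoxin-like protein, was at 971, 1083, 693 and 693 CPM in the D0.5 controls against 57.2, 61.2 and 54.6 CPM in the D0.5 knockouts. At D3.5 it stood at 25.1, 28.7 and 30.4 CPM in controls and 33.9, 37.9 and 29.9 CPM in knockouts, with an interaction of 4.17 ± 0.25 (adjusted p = 2.42e-06). The D0.5 knockouts kept a level above all D3.5 libraries for this gene, unlike for Alpl.

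Arginase 1 (Arg1) and the cornified envelope gene Sprr2a2 also kept an intermediate level in the D0.5 knockouts. Arg1 was at 159, 443, 418 and 255 CPM in the D0.5 controls and at 11.5, 19.4 and 6.93 CPM in the D0.5 knockouts. All D3.5 libraries lay between 0.412 and 1.79 CPM. Its interaction was 5.59 ± 0.77 (adjusted p = 0.00534). Sprr2a2 was at 105, 288, 515 and 190 CPM against 11.9, 8.59 and 8.28 CPM at D0.5, and between 0.255 and 2.49 CPM at D3.5, with an interaction of 6.87 ± 0.88 (adjusted p = 0.00534). Members of the Sprr2 family share sequence, so the split of reads among them is uncertain. Adgrg7, an adhesion G protein-coupled receptor, was high in the D0.5 controls alone, at 82.9 to 149 CPM, against 0.646 to 8.12 CPM in D0.5 knockouts and, overlapping these, 3.86 to 13.7 CPM at D3.5 (5.28 ± 0.78, adjusted p = 0.0079). These 6 genes were called in every alternative analysis, each library left out in turn included.

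Of 25 tested genes in a list of oestrogen-responsive epithelial genes, 6 had a positive interaction (Alpl, Sprr2a2, Sprr2f, Muc4, Clca1 and Padi4; 0.945% of all genes did) and 1 a negative one (Wfdc3; 0.932%). The list's median interaction was 1.60, beside 0.01 over all genes tested. On D0.5, 9 of the 25 were lower in the knockout and none higher (8.06% of all genes in either direction). On D3.5 1 was lower and none higher (0.574% of all genes in either direction). The summed level shows the same: the mean log2 CPM of the list was 6.98 to 7.77 in D0.5 controls, 5.21 to 5.74 in D0.5 knockouts, and 0.94 to 2.45 in all D3.5 libraries. Padi4, a peptidylarginine deiminase, was at 82.3, 51.5, 51.0 and 43.3 CPM in D0.5 controls and 34.4, 30.6 and 29.4 CPM in D0.5 knockouts, with 6.82, 9.46 and 9.78 CPM in D3.5 controls and 13.7, 11.9 and 14.7 CPM in D3.5 knockouts (interaction 1.48 ± 0.30, adjusted p = 0.0251). Its D3.5 groups lay the other way round from its D0.5 groups. The call of Padi4 was lost without D0.5 knockout 27, D3.5 controls 11, 14 or 16, or D3.5 knockouts 32 or 35 (adjusted p of 0.0539 to 0.0643), and in the fit of all libraries (0.322).

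For Clca1, a secreted metalloprotease of mucous cells, a single library set the level in the D3.5 knockouts. Clca1 was at 4132, 4072, 6779 and 3032 CPM in D0.5 controls and at 2068, 2035 and 1773 CPM in D0.5 knockouts. At D3.5 it was at 0.515, 0.297 and 0.739 CPM in controls and at 3.45, 0.526 and 40.7 CPM in knockouts, the last value being that of knockout 35. The interaction of 5.98 ± 1.40 (adjusted p = 0.0479) lost its call in 10 of the leave-one-out fits (adjusted p of 0.0552 to 0.132), those without D0.5 controls 5, 8 and 9, every D0.5 knockout, every D3.5 control and D3.5 knockout 35, and without mice 1 and 35 together (0.062). It was also lost with voom (0.249) and on log2(TPM + 1) (0.147) and log2(TPM + 0.1) (0.164). Prap1, a proline-rich acidic protein of the uterine epithelium, was at 2010 to 2839 CPM in D0.5 controls, 122 to 243 CPM in D0.5 knockouts and 0 to 2.87 CPM at D3.5 (5.48 ± 1.10, adjusted p = 0.0234). Its call was lost without D0.5 knockout 25, D3.5 controls 14 or 16 or D3.5 knockout 35 (adjusted p of 0.0533 to 0.169), without mice 1 and 35 together (0.163), with voom (0.111) and on log2(TPM + 0.1) (0.148).

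Epithelial marker scores moved with this set at D0.5. The general epithelium score (16 tested markers) was 7.40, 7.71, 7.96 and 7.24 in the D0.5 controls and 7.11, 7.11 and 7.10 in the knockouts, and the luminal score (6 tested markers) was 6.69 to 7.16 against 5.97 to 6.36. At D3.5 the general score overlapped between genotypes (4.89 to 5.59 against 5.24 to 5.56). The part of epithelial content in the result was not tested.

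**Figure D2:**
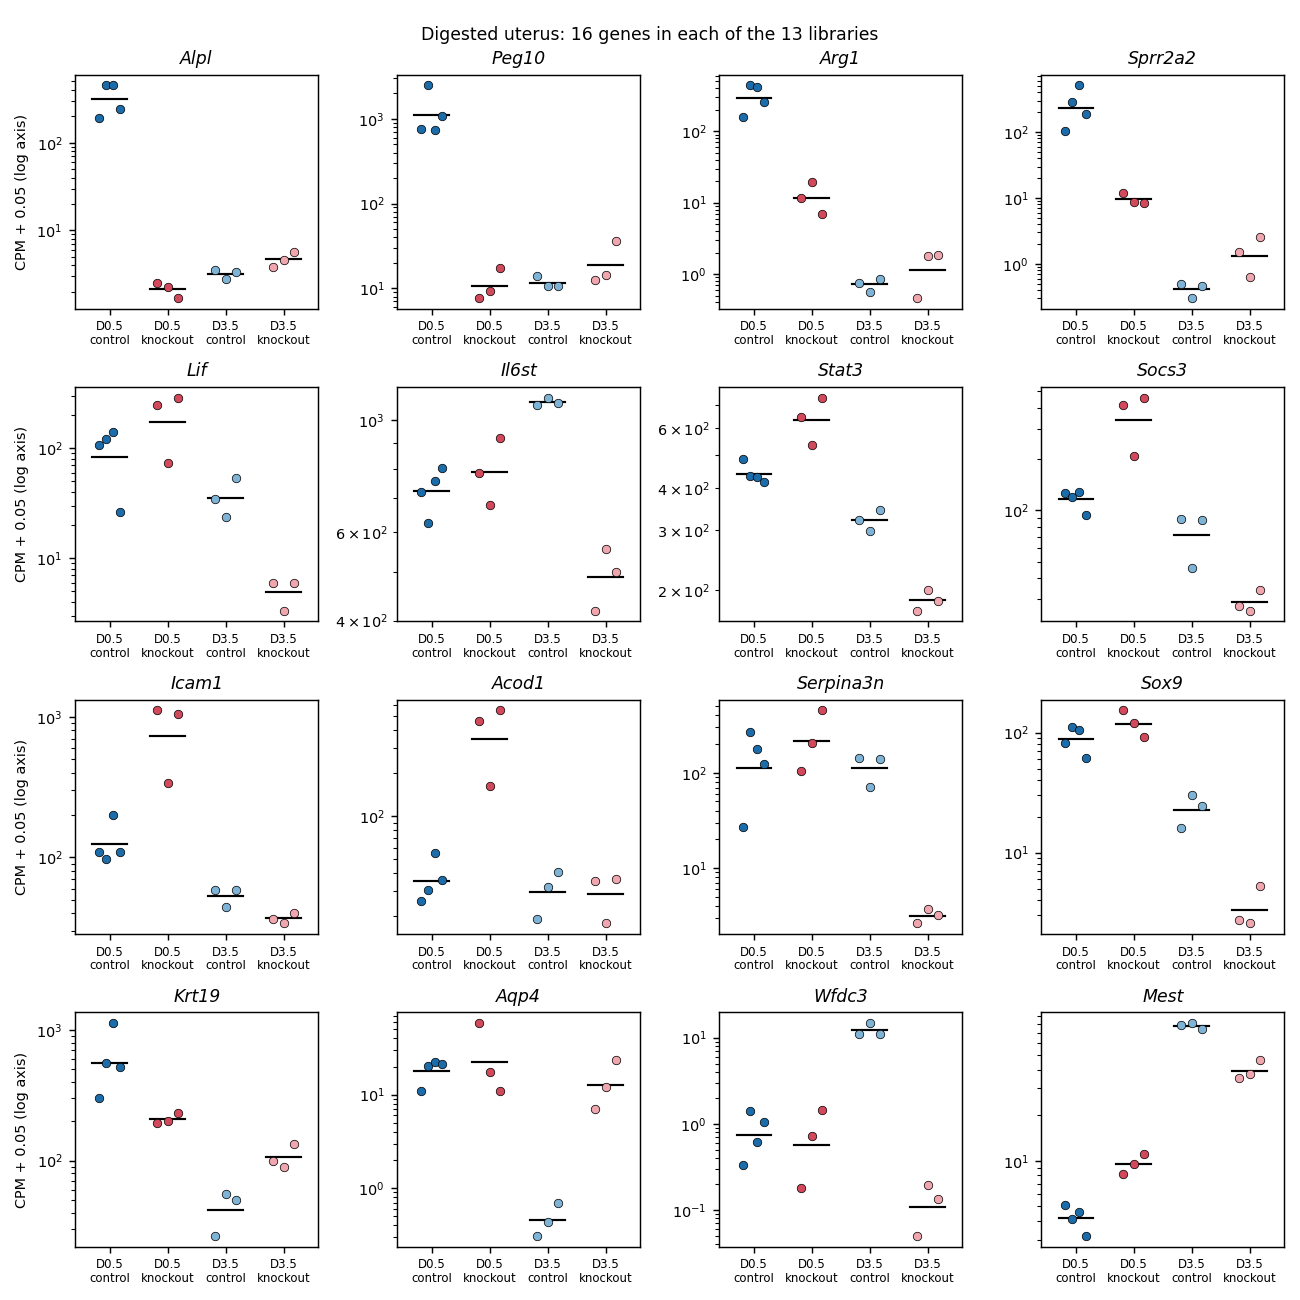
CPM plus 0.05 on a log axis for 16 genes in each of the 13 digested uterus libraries, by day and genotype; points are libraries and horizontal bars the mean of the log values. Alpl, Peg10, Arg1 and Sprr2a2 were high in the D0.5 controls alone, while Lif, Il6st, Stat3, Socs3, Serpina3n and Sox9 were lowest in the D3.5 knockouts.

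A second set holds 4 genes of the LIF pathway, namely a ligand, a receptor subunit, a transcription factor and a target. Of 18 tested genes in a list of LIF pathway and receptivity genes, 4 had a negative interaction (Lif, Il6st, Stat3 and Socs3; 0.932% of all genes did) and none a positive one, whereas the list's median was 0.17. Lif, the ligand, was at 106, 123, 141 and 26.0 CPM in the D0.5 controls and at 246, 73.7 and 287 CPM in the D0.5 knockouts. The D3.5 levels were 34.9, 23.6 and 53.9 CPM in controls and at 5.87, 3.30 and 5.85 CPM in knockouts. The D0.5 groups overlapped and the D3.5 groups did not. The genotype effect missed the threshold on each day alone (1.03, adjusted p = 0.23 at D0.5, and −2.90, adjusted p = 0.0578 at D3.5), and the interaction was −3.94 ± 0.79 (adjusted p = 0.0235). It lost its call without D0.5 knockouts 25 or 27, D3.5 control 16, or any D3.5 knockout (adjusted p of 0.0518 to 0.0705), on log2(TPM + 1) (0.0589), and in the fit of all libraries (0.322).

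Il6st encodes gp130, the signalling subunit shared by LIF and related cytokines. It was at 720, 625, 757 and 802 CPM in D0.5 controls and at 786, 680 and 921 CPM in D0.5 knockouts, which overlapped. At D3.5 it was at 1069, 1107 and 1082 CPM in controls and at 419, 554 and 500 CPM in knockouts, with no overlap. The knockout difference was 0.13 at D0.5 (adjusted p = 0.604) and −1.15 at D3.5 (adjusted p = 0.00392), giving an interaction of −1.28 ± 0.21 (adjusted p = 0.00882). It kept its call with each library left out and lost it in the fit of all libraries (0.319).

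Stat3, the transcription factor, differed between genotypes in opposite directions on the 2 days. It was at 485, 433, 432 and 416 CPM in D0.5 controls and higher, at 646, 536 and 736 CPM, in D0.5 knockouts. It was at 321, 299 and 345 CPM in D3.5 controls and lower, at 174, 200 and 186 CPM, in D3.5 knockouts. The groups overlapped on neither day. The effects were 0.54 ± 0.12 (adjusted p = 0.0195) and −0.78 ± 0.13 (adjusted p = 0.0156), and the interaction of −1.32 ± 0.18 (adjusted p = 0.00534) was called in every alternative run.

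Socs3, the feedback inhibitor that STAT3 induces, had a larger swing in the same direction. It was at 126, 120, 127 and 93.3 CPM in D0.5 controls and at 413, 208 and 456 CPM in D0.5 knockouts, and at 89.0, 45.9 and 87.9 CPM in D3.5 controls and 27.5, 25.8 and 34.0 CPM in D3.5 knockouts. No library overlapped between genotypes on either day. The effect was 1.62 at D0.5 (adjusted p = 0.00289) and −1.35 at D3.5 (adjusted p = 0.0631), and the interaction was −2.98 ± 0.39 (adjusted p = 0.00534), also called in every alternative.

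Serpina3n, a secreted serine protease inhibitor known as an acute phase protein, was at 26.9, 267, 178 and 124 CPM in D0.5 controls and 105, 207 and 452 CPM in D0.5 knockouts, and at 143, 70.9 and 140 CPM in D3.5 controls and 2.58, 3.68 and 3.16 CPM in D3.5 knockouts. The D3.5 knockouts alone were low. The interaction was −6.00 ± 0.94 (adjusted p = 0.0082), with −5.23 at D3.5 (adjusted p = 0.00669) and 0.78 at D0.5 (adjusted p = 0.44), and it was not called in the fit of all libraries (0.0964).

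Myd88 and Sting1, adaptors of innate immune signalling, changed sign as Stat3 did. Myd88 was at 55.4, 69.7, 72.4 and 73.4 CPM in D0.5 controls against 120, 92.3 and 142 CPM in knockouts, and at 92.0, 127 and 179 CPM in D3.5 controls against 62.0, 49.1 and 59.7 CPM in knockouts. Its effects were 0.80 (adjusted p = 0.0304) and −1.22 (adjusted p = 0.0229), and its interaction was −2.02 ± 0.30 (adjusted p = 0.00817). Sting1 was at 125 to 141 CPM against 168 to 214 CPM at D0.5 and at 32.2 to 47.0 CPM against 18.2 to 20.8 CPM at D3.5, with an interaction of −1.46 ± 0.20 (adjusted p = 0.00534). Neither gene's genotypes overlapped on either day. Sting1 was not called in the fit of all libraries (0.08).

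Since the RNAs of Stat3 and Socs3 both had negative interactions, promoters were searched for the letters TTCNNNGAA. These are the spaced half-sites bound by STAT factors, and they read alike on both strands. STAT3 protein and its activation were not measured. The search covered 300 bases, from 250 before to 50 after the start of each gene, in the RefSeq promoter set of build GRCm38.p6, which is not the build of the deposited counts. The letters occurred in 11 of 109 matched genes with a negative interaction (10.1%) and in 10 of 120 with a positive one (8.33%). They also occurred in 913 of 12717 matched genes tested (7.18%) and in 2288 of 27025 promoters in all (8.47%). These shares lie close to each other. Among the 4 called genes of the LIF list, Socs3 alone held a match in this window. Windows of 29 bases upstream of the start are shown for Socs3 and for 3 other genes with negative interactions described here, with the matching letters in capitals, 5′ to 3′ on the strand of the gene.
Socs3, chr11:117969502-117969530, minus strand, 154 bases upstream: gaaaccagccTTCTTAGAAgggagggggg
Icam1, chr9:21015888-21015916, plus strand, 42 bases upstream: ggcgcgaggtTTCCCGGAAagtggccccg
Myd88, chr9:119340046-119340074, minus strand, 46 bases upstream: agggcggagcTTCTCGGAAagcgaaagaa
Sele, chr1:164048084-164048112, plus strand, 140 bases upstream: tcagtggataTTCCCAGAAaactttttgg
A match is a string of letters and not a measured site, and its absence elsewhere refers to this window alone.

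Another set was higher in the D0.5 knockouts than in the D0.5 controls. Icam1, an adhesion molecule for leukocytes, was at 110, 97.6, 200 and 110 CPM in D0.5 controls and at 1110, 341 and 1047 CPM in D0.5 knockouts. Its D3.5 levels were 58.5, 44.1 and 58.3 CPM in controls and at 36.4, 33.9 and 40.3 CPM in knockouts. The D0.5 knockouts lay above all other libraries. The effect was 2.69 at D0.5 (adjusted p = 0.000672) and −0.54 at D3.5 (adjusted p = 0.787), with an interaction of −3.23 ± 0.50 (adjusted p = 0.0082; 0.0749 in the fit of all libraries).

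Acod1, the enzyme that makes itaconate and a gene of the progesterone-primed epithelium as well as of activated myeloid cells, was at 25.4, 30.3, 55.4 and 35.6 CPM in D0.5 controls and at 458, 162 and 547 CPM in D0.5 knockouts. At D3.5 both genotypes lay between 17.8 and 40.8 CPM. Its interaction of −3.46 ± 0.59 (adjusted p = 0.0117) was called in every alternative. Lrp2 (megalin), an endocytic receptor of epithelia, was at 11.6, 10.3, 3.73 and 5.99 CPM in D0.5 controls and 35.9, 46.3 and 51.5 CPM in D0.5 knockouts, and at 408, 434 and 634 CPM in D3.5 controls and 333, 238 and 325 CPM in D3.5 knockouts. The D0.5 knockouts thus lay above their controls while both remained below D3.5. Its interaction was −3.20 ± 0.45 (adjusted p = 0.00575; 0.059 in the fit of all libraries).

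Acod1 and Lrp2 were the 2 called genes among 16 tested in a list of progesterone-responsive epithelial genes, both negative (0.932% of all genes were). The list's median interaction was −0.99. On D0.5, 6 of the 16 were higher in the knockout and none lower (8.06% of all genes in either direction), and on D3.5 none was called (0.574% of all genes were). The mean log2 CPM of the list was 2.40 to 3.26 in D0.5 controls, 3.65 to 3.95 in D0.5 knockouts, 5.13 to 5.59 in D3.5 controls and 5.29 to 5.42 in D3.5 knockouts. The D0.5 groups did not overlap and the D3.5 groups did.

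Immediate early transcription factors gave 2 negative calls among 25 tested genes (0.932% of all genes). Egr3 was at 1.08, 3.99, 1.43 and 3.38 CPM in D0.5 controls and at 38.2, 13.6 and 20.03 CPM in D0.5 knockouts, and at 4.63, 2.29 and 3.29 CPM in D3.5 controls and 1.03, 1.24 and 1.95 CPM in D3.5 knockouts (−4.56 ± 0.72, adjusted p = 0.0082; 0.418 in the fit of all libraries). Egr2 was at 4.97 to 10.7 CPM against 18.7 to 37.7 CPM at D0.5 and at 2.96 to 4.24 CPM against 1.86 to 2.78 CPM at D3.5 (−2.51 ± 0.45, adjusted p = 0.0146; 0.582 in the fit of all libraries). Both kept their calls with each library left out, and Egr2 lost its call on log2(TPM + 1) (0.0735) and log2(TPM + 0.1) (0.0811). Genes of this list also answer to tissue dissociation. In undigested uterus the interaction was −4.12 for Egr3 (adjusted p = 0.117) and −2.49 for Egr2 (adjusted p = 0.115). In the edgeR fit of both tissues, the digested minus undigested difference was −0.41 ± 1.69 (SE) for Egr3 and −0.03 ± 1.03 for Egr2. Neither difference was called. Beyond this comparison the part of digestion was not tested.

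Among 26 chemokines and inflammatory cytokines, Ccl3 and Ccl4, which attract leukocytes, were called with negative interactions (0.932% of all genes were). The mucosal chemokine Cxcl17 was called with a positive one (0.945% of all genes were). Ccl4 was at 0.775, 1.96, 2.81 and 2.02 CPM in D0.5 controls and at 29.2, 11.2 and 11.5 CPM in D0.5 knockouts, with 1.10 to 1.65 CPM in all D3.5 libraries. Its interaction of −3.12 ± 0.64 (adjusted p = 0.0267) was lost in 8 leave-one-out fits, those without D0.5 control 5, D0.5 knockout 25 or any D3.5 library (adjusted p of 0.0529 to 0.0869), and in the fit of all libraries (0.702). Ccl3 (−3.85, adjusted p = 0.0494) was lost in 10, those without D0.5 controls 5, 8 or 9, D0.5 knockout 25 or any D3.5 library (0.0602 to 0.122). Ccl3 was also lost without mice 1 and 35 (0.0608), in the fit of all libraries (0.638), with voom (0.124) and on log2(TPM + 0.1) (0.0651). Cxcl17 was at 238, 321, 341 and 251 CPM in D0.5 controls and 97.7, 129 and 56.5 CPM in D0.5 knockouts, with 3.54 to 7.45 CPM at D3.5 (1.91 ± 0.39, adjusted p = 0.0267). It was lost without D0.5 control 5, D0.5 knockout 25, D3.5 controls 11 or 14, or any D3.5 knockout (0.0534 to 0.0714), and in the fit of all libraries (0.306). The list's median was −1.06, and 9 of its genes were higher and 2 lower in the D0.5 knockout (8.06% of all genes in either direction).

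Neutrophil markers moved with this set at D0.5. The neutrophil score over 14 tested markers was 1.90, 4.74, 4.33 and 4.90 in the D0.5 controls and 6.03, 5.35 and 6.67 in the D0.5 knockouts, with no overlap, and −0.16 to 0.99 in all D3.5 libraries. Of the 14 markers, 7 were higher in the D0.5 knockout and none lower (8.06% of all genes in either direction), and 1 had a called negative interaction (0.932% of all genes). That gene, Mmp8, a collagenase of neutrophil granules, was at 0.258, 2.68, 1.23 and 3.74 CPM in D0.5 controls and 50.4, 15.2 and 69.3 CPM in D0.5 knockouts, against 0.129 to 0.382 CPM in D3.5 controls and 0 to 0.048 CPM in D3.5 knockouts. Its adjusted p was 0.0409 and rose to 0.0585 to 0.147 in 10 leave-one-out fits, those without D0.5 controls 5 or 8, D0.5 knockouts 25 or 27, or any D3.5 library. It was 0.0547 in the fit of all libraries and 0.114 with voom. With so few reads at D3.5 the size of its interaction is not given. Knockout 26, with the lowest neutrophil score of its group, also had the lowest level of its group for Icam1, Acod1, Egr3, Lif and Socs3. Not every gene of this set did so. Ccl3, at 38.5, 13.8 and 6.46 CPM in knockouts 25, 26 and 27, was lowest in knockout 27, which had the highest score. The part of neutrophils in the levels of these genes was not tested.

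**Figure D3:**
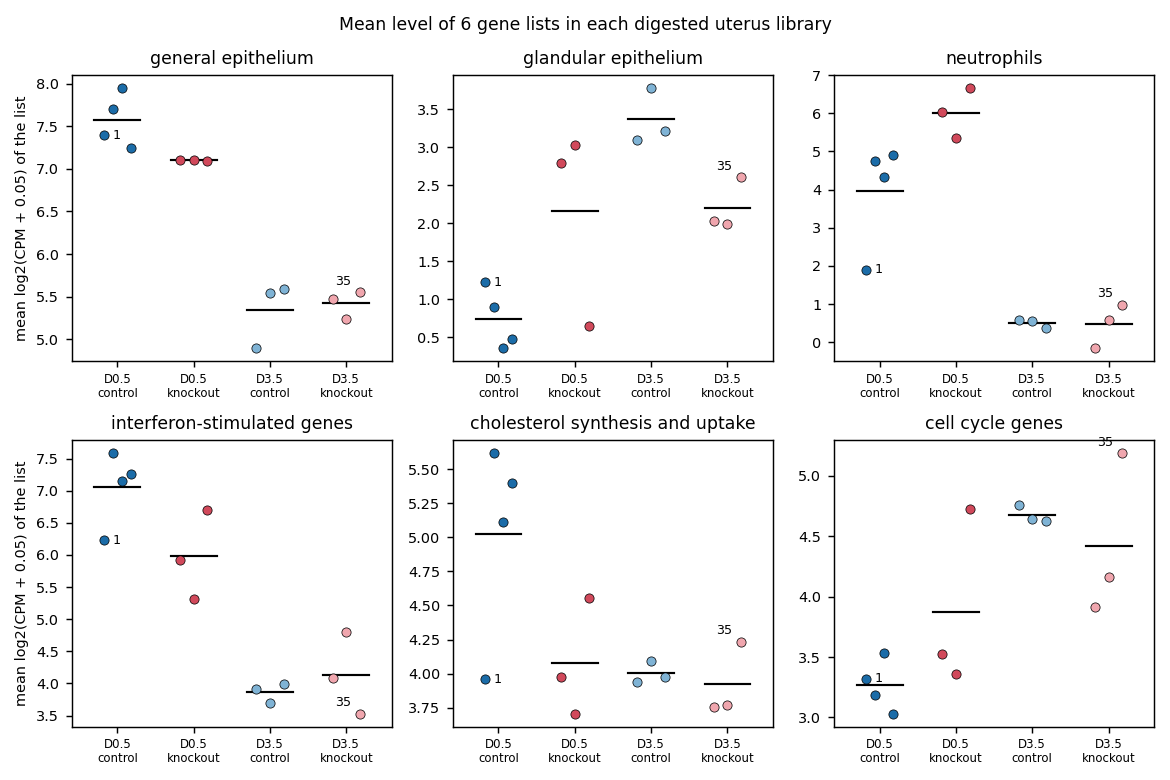
Mean log2(CPM + 0.05) of 6 gene lists in each digested uterus library, with group means as bars and the libraries 1 and 35 numbered. The mean of the neutrophil markers was higher in D0.5 knockouts (5.35 to 6.67) than in D0.5 controls (1.90 to 4.90) and low at D3.5. The mean of the glandular markers was lower in D3.5 knockouts (1.99 to 2.61) than in D3.5 controls (3.10 to 3.79), with a median effect of −0.17 over the single markers.

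A further set was higher in the D3.5 knockouts than in the D3.5 controls. Aqp4, a water channel, was at 11.0, 20.01, 22.3 and 21.1 CPM in D0.5 controls, 58.3, 17.3 and 11.0 CPM in D0.5 knockouts, 0.257, 0.382 and 0.637 CPM in D3.5 controls and 7.01, 12.0 and 23.3 CPM in D3.5 knockouts. Its interaction of 4.28 ± 0.87 (adjusted p = 0.025) was lost without D0.5 control 5, any D3.5 control, or D3.5 knockout 35 (adjusted p of 0.0502 to 0.0761), in the fit of all libraries (0.088), with voom (0.0678) and on log2(TPM + 1) (0.137). Gjb2, which encodes connexin 26, a gap junction protein, was at 77.2 to 131 CPM in D0.5 controls, 31.2 to 96.2 CPM in D0.5 knockouts, 0.714 to 1.06 CPM in D3.5 controls and 3.97 to 6.93 CPM in D3.5 knockouts. Its interaction of 3.36 ± 0.59 (adjusted p = 0.014) was lost without D3.5 control 16 (0.056). Aqp4 was the 1 called gene of 22 water and ion transport genes, and Gjb2 the 1 of 23 cell junction genes (1.88% of all genes were called).

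Krt19, a keratin of simple epithelia, had its genotypes in opposite order on the 2 days. It was at 299, 560, 1127 and 523 CPM in D0.5 controls and at 193, 200 and 232 CPM in D0.5 knockouts. On D3.5 it was at 26.4, 55.6 and 49.4 CPM in controls and at 99.1, 89.3 and 134 CPM in knockouts, again with no overlap. The interaction was 2.88 ± 0.53 (adjusted p = 0.0169), and the D3.5 effect alone was 1.29 (adjusted p = 0.273). Ces1d, a carboxylesterase with close relatives in its gene cluster, was at 121, 169, 176 and 160 CPM against 91.2, 66.2 and 47.8 CPM at D0.5 and at 21.7, 39.3 and 20.4 CPM against 68.5, 74.8 and 90.5 CPM at D3.5 (2.72 ± 0.37, adjusted p = 0.00534). Both were called in every alternative. The luminal marker score at D3.5 was 4.49 to 5.34 in controls and 5.21 to 5.51 in knockouts, which overlapped.

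Sox9 and Wfdc3, of the glandular list, were lower in the D3.5 knockouts. Sox9, a transcription factor of glandular and progenitor epithelium, was at 82.2, 111, 105 and 62.0 CPM in D0.5 controls and 153, 120 and 92.0 CPM in D0.5 knockouts, with overlap. It was at 16.0, 30.3 and 24.6 CPM in D3.5 controls and at 2.68, 2.53 and 5.23 CPM in D3.5 knockouts. The effect was −2.75 at D3.5 (adjusted p = 0.0026), and the interaction of −3.19 ± 0.43 (adjusted p = 0.00534) was called in every alternative. Wfdc3, a protease inhibitor of the whey acidic protein family, was at 0.280 to 1.37 CPM and 0.130 to 1.41 CPM in the 2 D0.5 groups. At D3.5 it was at 11.1, 14.7 and 11.1 CPM in controls and at 0, 0.143 and 0.083 CPM in knockouts (interaction −7.17 ± 1.10, adjusted p = 0.0082; 0.0615 in the fit of all libraries). With so few reads of Wfdc3 in the D3.5 knockouts the size of its interaction is uncertain, and it ran from −7.87 to −4.30 over the alternatives. Wfdc3 is a member of both the oestrogen-responsive and the glandular list.

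Of 8 tested glandular markers 3 had a negative interaction (Sox9, Wfdc3 and Ttr) and none a positive one (0.932% and 0.945% of all genes), with a median of −2.71. On D0.5, 4 of the 8 were higher in the knockout and none lower (8.06% of all genes in either direction). On D3.5, 2 were lower and none higher (0.574% of all genes in either direction). The median genotype effect of the list was 1.07 at D0.5 and −0.17 at D3.5. Ttr, the thyroxine carrier transthyretin, rested on few reads: it was at 0 to 0.065 CPM in D0.5 controls, 1.49, 4.76 and 0 CPM in D0.5 knockouts, and 4.97 to 12.8 CPM at D3.5. Its adjusted p of 0.0386 rose above 0.05 in 12 leave-one-out fits (0.0545 to 0.0943), all but the one without D0.5 knockout 27. It was 0.164 in the fit of all libraries, 0.0932 without mice 1 and 35, 0.231 with voom, and 0.227 and 0.249 on log2(TPM + 1) and log2(TPM + 0.1). The glandular score was 0.36 to 1.22 in D0.5 controls, 2.80, 3.03 and 0.65 in D0.5 knockouts, 3.10 to 3.79 in D3.5 controls and 1.99 to 2.61 in D3.5 knockouts. Since the markers are themselves the genes counted here, gland content and expression in glands cannot be told apart.

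Several genes outside these lists were lower in the D3.5 knockouts. Mest, an imprinted gene of the hydrolase family, was at 5.06, 4.05, 4.55 and 3.14 CPM in D0.5 controls and 8.17, 9.41 and 11.1 CPM in D0.5 knockouts, and at 78.5, 80.9 and 73.7 CPM in D3.5 controls and 35.3, 37.2 and 46.1 CPM in D3.5 knockouts. It was higher in the knockout on the first day and lower on the later one, without overlap on either (−2.15 ± 0.24, adjusted p = 0.00198; 0.346 in the fit of all libraries). Kit, the stem cell factor receptor, was at 53.4, 44.7, 64.7 and 51.7 CPM against 40.8, 37.9 and 44.7 CPM at D0.5 and at 76.1, 86.3 and 76.9 CPM against 16.5, 27.4 and 24.5 CPM at D3.5 (−1.42 ± 0.24, adjusted p = 0.0117; 0.941 in the fit of all libraries). Kit is the 1 called gene of 9 tested mast cell markers (1.88% of all genes were called). The mast cell score at D3.5 was 2.00 to 3.01 in controls and 2.46 to 2.97 in knockouts.

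Cdh5, Sele and Selp, genes of the endothelium, had negative interactions. Cdh5, the cadherin of endothelial junctions, was at 87.8, 99.8, 133 and 134 CPM in D0.5 controls and 146, 156 and 152 CPM in D0.5 knockouts, and at 301, 301 and 299 CPM in D3.5 controls and 224, 213 and 185 CPM in D3.5 knockouts. The knockouts lay above the controls on D0.5 and below them on D3.5, without overlap, although neither effect was called (adjusted p = 0.0935 and 0.244). Its interaction of −0.95 ± 0.21 (adjusted p = 0.0383) was lost in 10 leave-one-out fits (0.0501 to 0.0971), those without D0.5 control 5, any D0.5 knockout or any D3.5 library. It was also lost without mice 1 and 35 (0.057), in the fit of all libraries (1.0), and with limma on log2(TPM + 1) (0.066) and log2(TPM + 0.1) (0.0735). Cdh5 was the 1 called gene of 12 endothelial markers (1.88% of all genes were called), and their median interaction was −0.70. Sele, the endothelial selectin, was at 0.796, 0.850, 3.58 and 1.78 CPM against 17.6, 3.57 and 13.7 CPM at D0.5 and at 3.80, 1.87 and 4.84 CPM against 0.464, 0.812 and 0.249 CPM at D3.5 (−5.53 ± 0.96, adjusted p = 0.0136; 0.185 in the fit of all libraries). Selp, the selectin of platelets and endothelium, was at 8.11, 14.6, 28.5 and 14.2 CPM against 76.2, 17.7 and 87.9 CPM at D0.5 and at 31.0, 21.6 and 37.6 CPM against 11.8, 12.4 and 11.0 CPM at D3.5 (−3.26 ± 0.68, adjusted p = 0.0297). The D0.5 groups overlapped and the D3.5 groups did not. Selp lost its call in 8 leave-one-out fits (0.0646 to 0.0866), those without D0.5 control 5, D0.5 knockouts 25 or 27, D3.5 controls 11 or 16, or any D3.5 knockout. It was also lost without mice 1 and 35 (0.0554), in the fit of all libraries (0.314), and on log2(TPM + 1) (0.0564) and log2(TPM + 0.1) (0.0613).

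Pericyte markers gave 2 negative calls among 7 tested (0.932% of all genes), with a list median of −0.81. Rgs5, a regulator of G protein signalling, was at 251, 250.2, 265 and 273 CPM against 288, 340 and 252 CPM at D0.5 and at 670, 634 and 577 CPM against 390, 439 and 379 CPM at D3.5 (−0.81 ± 0.18, adjusted p = 0.0332). Pdgfrb, the receptor for platelet-derived growth factor B, was at 220, 221, 265 and 266 CPM against 372, 342 and 399 CPM at D0.5 and at 176, 172 and 163 CPM against 151, 160 and 135 CPM at D3.5 (−0.81 ± 0.17, adjusted p = 0.0267). The genotypes of Rgs5 were apart at D3.5 and overlapped at D0.5, and those of Pdgfrb were apart on both days. Rgs5 lost its call in 9 leave-one-out fits (0.0529 to 0.0886), those without D0.5 controls 5 or 8, D0.5 knockout 25 or any D3.5 library, without mice 1 and 35 (0.0736), in the fit of all libraries (1.0) and on log2(TPM + 0.1) (0.0507). Pdgfrb lost it in 8 (0.0574 to 0.0751), those without D0.5 control 5, D0.5 knockouts 25 or 27, any D3.5 control, or D3.5 knockouts 32 or 35, without mice 1 and 35 (0.0641) and in the fit of all libraries (0.996).

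**Figure D4:**
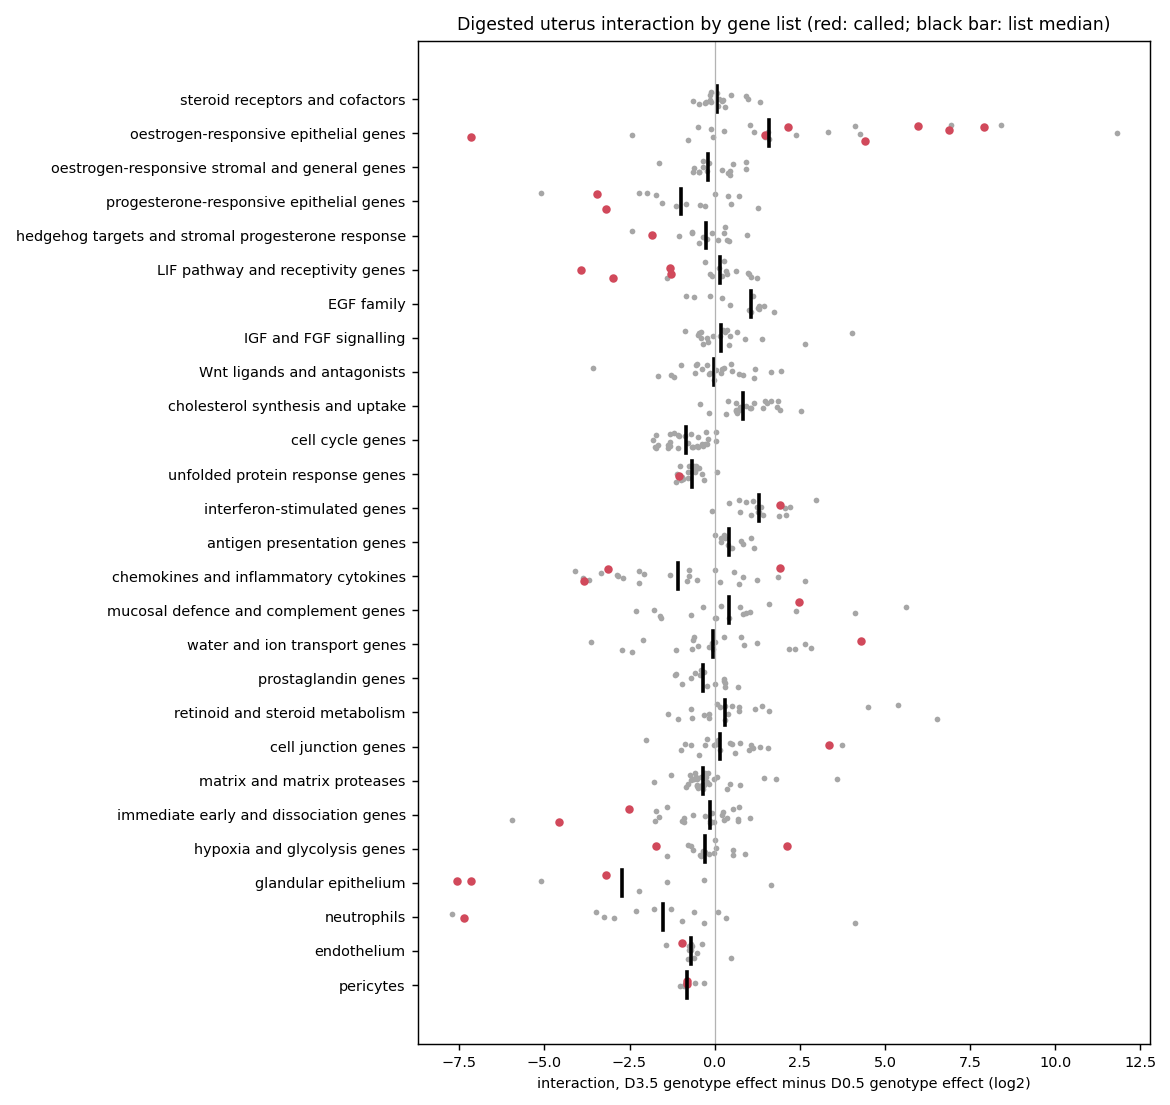
Interaction log2 value of every tested gene in 23 gene lists and 4 cell type marker lists, with called genes in red and the list median as a black bar. Medians ranged from −2.71 for glandular markers to 1.60 for oestrogen-responsive epithelial genes, and in most lists the called genes were few or none.

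Other lists held genotype effects at D0.5 with few or no called interactions. Of 18 interferon-stimulated genes 9 were lower in the D0.5 knockout and none higher, where 8.06% of all genes tested had an effect in either direction. The median interaction was 1.29, and 1 of the 18 was called (1.88% of all genes), which is a single gene. That gene, Irf7, a transcription factor of the interferon response, was at 138, 309, 281 and 243 CPM in D0.5 controls and 95.8, 66.3 and 105 CPM in D0.5 knockouts, and at 16.1 to 20.3 CPM in D3.5 controls and 15.4 to 34.4 CPM in D3.5 knockouts (1.93 ± 0.42, adjusted p = 0.0371). Its call was lost in 11 leave-one-out fits, all but those without D0.5 control 1 and D3.5 knockout 35 (0.0518 to 0.101), in the fit of all libraries (0.42) and on log2(TPM + 0.1) (0.0542). The interferon score was 6.23, 7.59, 7.14 and 7.25 in the D0.5 controls, lowest in control 1, and 5.92, 5.31 and 6.70 in the D0.5 knockouts.

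Among 20 genes of the unfolded protein response 6 were higher in the D0.5 knockout and none lower (8.06% of all genes in either direction). The median interaction was −0.67, and Herpud1 alone was called (1.88% of all genes were). Herpud1, part of endoplasmic reticulum-associated degradation, was at 92.7, 88.8, 111 and 100.1 CPM against 223, 162 and 226 CPM at D0.5 and at 63.9 to 75.2 CPM against 57.6 to 81.3 CPM at D3.5 (−1.04 ± 0.22, adjusted p = 0.0277). The D0.5 groups were apart and the D3.5 groups overlapped. It was lost without D0.5 control 5, D0.5 knockouts 25 or 27, D3.5 controls 14 or 16, or D3.5 knockouts 32 or 34 (0.0636 to 0.088). It was also lost in the fit of all libraries (0.558) and on log2(TPM + 1) (0.0504) and log2(TPM + 0.1) (0.0574).

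None was called among 24 genes of cholesterol synthesis and uptake (median 0.84; 5 lower at D0.5), 30 cell cycle genes (−0.84), 13 of the EGF family (1.07), 25 Wnt ligands and antagonists (−0.02), 20 of IGF and FGF signalling (0.20), 33 of matrix and matrix proteases (−0.34) or 18 steroid receptors and cofactors (0.08). At an unadjusted p under 0.05 these lists held 6, 5, 5, 7, 3, 8 and 1 genes, beside 2546 of all 16194 genes tested. Over all genes 1.88% were called in the interaction, and 8.06% had a called effect at D0.5. The spread within groups was wide for 2 of them. The cholesterol score of control 1 (3.96) lay within the D0.5 knockouts (3.71 to 4.55), and the cell cycle score was 3.52, 3.36 and 4.72 in the D0.5 knockouts and 3.92, 4.16 and 5.19 in the D3.5 knockouts.

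The same contrast was computed in the undigested uterus (20 libraries) and in the scraped luminal epithelium (26 libraries), each fitted on its own. In undigested uterus 232 of 16232 genes were called (1.43%), and 120 of these were also called in the digested uterus, all in the same direction, which is 39.5% of the digested and 51.7% of the undigested calls. Of the 304 genes, 303 had the same sign in both. When the 2 interactions were compared in 1 fit of both tissues, edgeR called a difference in 0 of 16782 genes (0.0%), with 178 at an unadjusted p under 0.05. limma voom called 0 as well, and so did edgeR in only the mice with both tissues, without a block (118 at an unadjusted p under 0.05) and with the mouse as a block, which pairs the tissues of each animal (319). Lif, for example, gave −3.94 in the digested and −1.72 (adjusted p = 0.728) in the undigested uterus, and Sox9 gave −3.19 and −1.74 (0.253). Wfdc3 gave −7.17, a size that rests on few reads in the D3.5 knockouts, and −2.61 (0.564). A gene called in one tissue and not in the other is therefore not shown to differ between them. Each of the counts at an unadjusted p under 0.05 fell below the share that chance alone gives at that threshold. These tests could therefore miss true differences, and 0 calls does not show that the tissues were alike.

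In luminal epithelium the interaction was called in 2575 of 15601 genes (16.5%). Of 302 digested uterus genes tested there, 182 were called in both tissues, 180 with the same sign, and 275 had the same direction whether called or not. The 180 of the same sign are 59.2% of the digested and 7.0% of the epithelial calls. For the genes of the oestrogen phase, Alpl gave 7.89 in digested uterus, 8.06 in undigested uterus and 9.52 in luminal epithelium, Prxl2a 4.17, 4.17 and 4.63, Arg1 5.59, 7.11 and 5.25, Sprr2a2 6.87, 5.70 and 6.74, and Adgrg7 5.28, 5.71 and 5.88. Peg10 gave 7.64, 7.46 and 13.6. None of these 6 was called as different between digested uterus and epithelium in the fit of all libraries of both tissues, where Peg10 had an adjusted p of 0.0597. Restricted to mice with both tissues and blocked by mouse, the fit called Peg10 (−5.11, adjusted p = 0.0476). Socs3 gave −2.98, −2.50 and −3.34, whereas Wfdc3 gave 0.34 (adjusted p = 0.894) and Sox9 −0.89 (adjusted p = 0.163) in luminal epithelium. There Lif gave 1.11 (adjusted p = 0.53), opposite in sign to digested uterus, and Il6st gave −0.80 (adjusted p = 0.099). The digested minus epithelial difference for Lif was −5.06 and was not called (adjusted p = 0.139).

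The interaction differed between digested uterus and luminal epithelium in 145 of 16780 genes (0.864%; 56 more positive and 89 more negative in digested uterus), and 13 of these were among the 304. In 12 of the 13 the epithelial value was the larger in size. Fbln7, a fibulin of the extracellular matrix, gave 2.00 in digested uterus and 6.99 in epithelium, Hgfac, the activator of hepatocyte growth factor, 2.40 and 6.59, and Olfm1, a secreted olfactomedin, 1.34 and 4.87. In the negative direction Sema6a, a semaphorin, gave −1.35 and −4.63, and Prr5l, a partner of the mTOR complexes, −1.56 and −4.87. Signs were opposite for Gzmm, a granzyme of cytotoxic lymphocytes (5.28 and −1.09), Col12a1, a fibril-associated collagen (−1.94 and 2.57), and Arrb1, a beta-arrestin (−0.82 and 1.42). In only the 13 mice with both tissues 157 genes were called, 76 of them among the 145, and with the mouse added as a block in those mice 253 were called, 89 of them among the 145. Of the 13 genes named from this comparison, Col12a1 (adjusted p = 0.168), Flot1 (0.0652), Gzmm (0.0866) and Nedd9 (0.0797) lost their call in those mice without a block, and they were not called with it either (0.232, 0.0873, 0.238 and 0.0526). The other 9 kept their call with the block. RNA was isolated as 1 batch for each tissue, and in these differences the isolation batch cannot be told apart from the tissue.

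**Figure D5:**
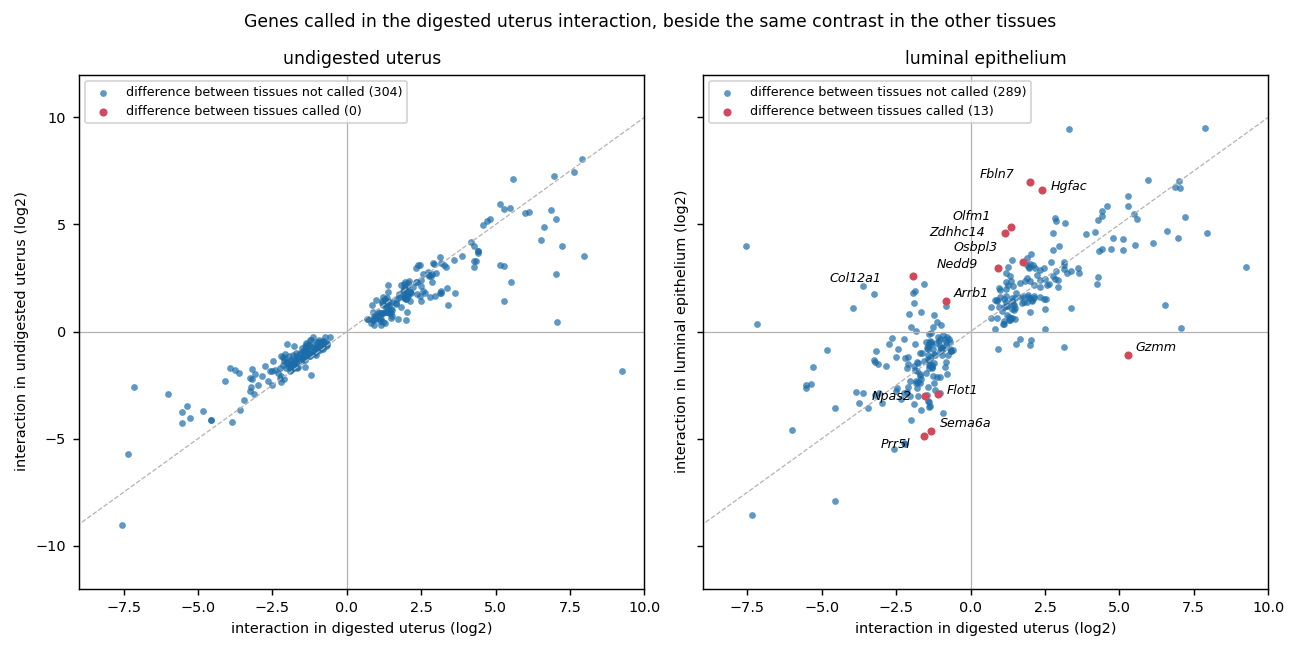
Interaction log2 value in digested uterus (horizontal axis) against the same contrast in undigested uterus (left) and luminal epithelium (right) for the genes called in digested uterus, with the line of equal values dashed; red marks genes whose interaction differed between the tissues by the joint test. No gene was marked for undigested uterus and 13 were for luminal epithelium.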

How the data were processed

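RNA was sequenced from 59 uterine libraries of 29 mice. The authors deposited estimated counts and TPM values for 21706 gene symbols; the submitters' processing notes name kallisto 0.46.1 and build GRCm39. Annotation, strand and filters are not given in the sources used here. RNA was isolated as 1 batch per tissue, per the labels' protocols. Estimated counts, as deposited, were rounded to whole numbers. Groups came from the sample titles.

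Genes passing filterByExpr (minimum count 10, total 15) were tested in the 13 digested uterus libraries with edgeR 4.0.16 (R 4.3.3; quasi-likelihood test, TMM scaling, 4 groups, no covariate, 9 residual degrees of freedom, biological coefficient of variation 0.259). Benjamini-Hochberg adjustment ran over all genes of a comparison, and genes under 0.05 were called. Standard errors were derived from fold changes and F statistics. Scores are means of log2(CPM + 0.05). The 15 pairs of replicates differed beyond counting noise (chi-square per degree of freedom of 17.3 to 131), so each counted as 1 sample. Total counts, 14.1 M to 46.2 M, set the counting precision of low genes.

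Alternatives were DESeq2 1.42.0, limma 3.58.1 with voom and sample weights, limma on the log2 of the deposited TPM values plus 1 or 0.1 (mean TPM of at least 1), median-of-ratios scaling, no filter, a fit of all 59 libraries, each library left out, and, chosen after seeing the data, mice 1 and 35 left out together. The digested uterus interaction fit was also run on simulated counts with independent noise, and the outcome is not given here. That simulation had no outlying library and no shared mouse, so it does not bear on the fits between tissues. No mouse occurs in more than 1 digested uterus group. Between tissues, libraries of a mouse deviated together from their group means (median r over 13 mice 0.305 with undigested uterus, lowest 0.0977, and 0.137 with luminal epithelium, lowest −0.0649). Because the same animals gave these libraries, a fit with the mouse as a block was added between tissues.

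Named genes were Esr1, Pgr and Wnt7a, the 15 called genes of highest and the 15 of lowest interaction (group mean of at least 10 CPM, no predicted name), up to 4 called members per list or its highest member, and 4 per group pattern; not all 96 are described, and a few are not reported here. Genes named from the comparison between tissues, and the promoter windows shown, were chosen after their values were seen. The contrast, the 43 lists (23 gene lists and 20 marker lists, 652 genes in the tables) and the rule were chosen with earlier results of these data known. Promoters came from RefSeq (GRCm38.p6) and were matched by symbol for 229 of the 304 called genes.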

Additional observations from a re-analysis of the deposited data

Results flagged for a closer look

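The interaction itself separates genotype effects by day in 304 genes of the digested uterus. In 7 of them the genotype effect was called on both days with opposite signs: Ces1d (interaction 2.72), Entpd4b (1.40), Fam43a (−1.43), Mest (−2.15), Myd88 (−2.02), Stat3 (−1.32) and Sting1 (−1.46). Entpd4b has a close copy in Entpd4, so reads may be split between them.

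The interaction differed between digested uterus and luminal epithelium in 145 genes. Among the genes called in digested uterus, the digested minus epithelial difference was −5.00 for Fbln7, −4.54 for Col12a1, −4.22 for Hgfac, −3.57 for Olfm1, −3.50 for Zdhhc14, −2.27 for Arrb1, −2.09 for Nedd9 and −1.52 for Osbpl3. It was 1.48 for Npas2, 1.78 for Flot1, 3.25 for Sema6a, 3.28 for Prr5l and 6.32 for Gzmm.

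In the 4 D0.5 controls, 1 library lay far from the other 3 for 8 of 93 named genes (above Dixon's 95% critical value), where chance alone gives such a value in about 1 group in 20. Control 1 was that library for Aqp4 (10.9 CPM), Cyp21a1 (8.65), H2-D1 (1005) and Spink1 (0.280). Control 5 was for Entpd4 (34.7) and Ttr (0.0654), control 8 for Icam1 (200.2) and control 9 for Lif (26.0). Spink1 and Ttr were at 0 in the other controls, which alone fixes their ratio at its highest value. The 93 genes share the same 4 libraries and most were chosen by their calls, so their count is not a test against that rate. The cause was not tested.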

How the results depend on the processing

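Directions of the 304 genes held in every setting on counts. The count of called interactions (304; 153 positive, 151 negative) was 903 (469 and 434) with DESeq2, 303 of the 304 shared, 686 (312 and 374) with voom, 273 shared, and 61 (49 and 12) in the fit of all 59 libraries. Negative calls were 83 with log2(TPM + 0.1). Leaving out 1 library gave 105 to 563 in all, 56 to 296 positive and 49 to 284 negative, the lowest total without D3.5 control 16 and the highest without D0.5 control 1. The other settings gave 234 to 400 in all. Of 73 called named genes 42 kept their call with each library left out, and 46 lost it in the fit of all libraries. The D0.5 genotype effect (1306 genes) gave 2164 with DESeq2, 264 in the fit of all libraries, and 608 (without control 5) to 1528 (without control 1) with 1 library left out, with 642 and 720 without knockouts 25 and 27. The D3.5 effect (93 genes) gave 244 with DESeq2, 345 with voom, 26 in the fit of all libraries, and 34 (without knockout 32) to 120 (without D0.5 control 1), with 47, 45, 46 and 40 without controls 14 and 16 and knockouts 34 and 35. The difference from luminal epithelium (145; 56 and 89) was 492 (256 and 236) with voom, 126 shared, 157 (82 and 75) in only the mice with both tissues, and 253 (115 and 138) in those mice with the mouse as a block. The difference from undigested uterus was 0 in those mice with and without the block. The cause of these differences was not tested. Depth limits genes with a few counts, such as Mmp8, Ttr and Wfdc3 in their low groups.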
